A study of Mus musculus with 8 samples.

Results

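H3K9me3 was measured by ChIP-seq with lot 638466 of the Abcam antibody Ab8898 in mouse ES cells at *T* = 0 and at *T* = 6d. *T* counts days from the start of treatment with 4′OHT (4′-hydroxytamoxifen), given to delete *Setdb1*. These 2 libraries of the 8 in the series were compared with each other. They were chosen by the lot number in the sample labels. All groups are ES cells of JM8 lines, as the labels name them (C57BL/6N), in which 1 *Setdb1* allele (tm2) was already inactive. At *T* = 0 the other allele was conditional and the cells were untreated, and at *T* = 6d the cells had received 0.8 μM 4′OHT for 48 h, followed by culture without it. 4′OHT activates the CreERT2 recombinase, made in these cells from *Rosa26*, which removes the conditional part of the remaining allele. The labels call the conditional and the deleted allele tm1a and tm1c, and the study calls them tm1c and tm1d. The cells are clonal lines, a few cells may escape recombination, and libraries of *Setdb1* heterozygous control cells were not analysed here, so 4′OHT, time in culture and loss of Setdb1 cannot be told apart. The other antibodies were lot 58206 of Ab8898, with a library at the same time points, and an Upstate-type antibody with libraries at both and also at *T* = 2d and *T* = 4d.

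Setdb1 is a histone methyltransferase that places trimethylation on lysine 9 of histone H3, a mark of silent chromatin. In ES cells it is brought to DNA mainly by Trim28, which binds KRAB zinc finger proteins, and it is known for silencing endogenous retroviruses and for acting at imprinted loci. Other enzymes, Suv39h1 and Suv39h2, place the same mark on the repeats next to centromeres. A ChIP-seq library counts sequenced DNA fragments (tags), so a region that carries more of the mark than its surroundings holds more tags, and the counts are relative to the rest of the library.

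Each library held 12194174 tags, of which 11912111 at *T* = 0 and 11886604 at *T* = 6d lay on chromosomes 1 to 19. They were counted in windows of 5 kb (mm9), and the median occupied window held 25 tags in both libraries. This was the deepest of the antibodies, with the median at 10 tags for the Upstate-type antibody and 16 for lot 58206 at *T* = 0. There was 1 library at each time point, so no interval or *P* value covers the spread between cultures. Those of tags and their ratios cover counting error only. The exact intervals of shares of windows treat windows as independent, although windows that change can lie side by side. In windows near the background level of the other antibodies, the mean squared difference was 1.45 times what counting error gives, so these libraries differed by more than counting error even there. No genome or annotation of mm9 was used, so regions are given by position, with neither gene content nor sequence, and ChIP-seq gives no expression against which the ES cell label could be checked.

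The tags of this lot were only weakly concentrated, and less so at *T* = 6d. At *T* = 0, 555 windows reached 3 times the library median and held 0.610% of the tags (95% exact binomial interval 0.606 to 0.615%). At *T* = 6d, 110 windows did, with 0.236% of the tags (0.233 to 0.238%). Windows at 2 times the median decreased from 8163 to 2037, and those at 10 times the median from 33 to 27. The richest 1% of windows held 2.67% of the tags at *T* = 0 and 2.19% at *T* = 6d, and the Gini coefficient of tags over windows, which is 0 for an even spread, went from 0.253 to 0.210. The tags of the other antibodies stood further apart from background. Each library was thinned to 6000000 tags to compare them at 1 depth. Windows at 3 times the median then held 0.855% of the tags of lot 638466 at *T* = 0 and 0.239% at *T* = 6d. For lot 58206 these shares were 4.50% and 11.6%, and for the Upstate-type antibody 36.1% and 35.5%. The thinned medians were 12 and 13 tags for lot 638466 and 12 and 11 for lot 58206, so the limits differed somewhat between time points. At full depth, with a median of 16 tags at both time points, lot 58206 went from 4.72% to 11.1%. This lot was therefore the least concentrated at both time points, and the share in its richest windows went down while that of lot 58206 went up.

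To follow enriched windows without choosing them on the libraries compared, reference windows were those at 3 or more times the median in the *T* = 0 library of both other antibodies, 2353 in all. With lot 638466 their tags decreased from 151242 to 93151, or from 1.27% to 0.784% of the library, a ratio of 0.617 (95% interval 0.612 to 0.622). The median reference window went from 48 tags (quartiles 38 and 68) to 29 (24 and 35), so that at *T* = 6d it was close to the genome median. The ratio was below 1 in 87.7% of the reference windows, against 44.7% of all windows tested. In the same windows the ratio was 0.619 with the Upstate-type antibody and 1.04 with lot 58206, whose *T* = 0 libraries took part in the choice. Whether the untreated libraries of the antibodies have features in common, such as a shared chromatin sample, was not tested.

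Each of the 446838 windows with at least 20 tags over both libraries was compared (Fisher's exact test, two-sided), and called where the Benjamini-Hochberg adjusted *P* was below 0.05 and the change over 1.5-fold. Over the genome 2175 windows (0.487%) had decreased and 361 (0.0808%) had increased by *T* = 6d. Of the reference windows 633 were lower, or 26.9% (exact interval 25.1 to 28.7%). None was higher, and 0 of 2353 allows a share of up to 0.127%, taken as 3 counts of 2353 (the upper bound of the exact interval is 0.157%). For the share of reads on repeats, the study required a Fisher's exact *P* below 0.01 and a change over 1.5-fold. With these limits applied to windows, *P* unadjusted, 9466 windows (2.12%) were lower and 7135 (1.6%) higher over the genome. By this unadjusted rule 898 reference windows were lower and 2 higher. The adjusted and the unadjusted calls thus differed mainly over the genome, where most windows hold few tags.

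The change went with the pooled *T* = 0 tags of the other antibodies. All tested windows were grouped by this pool, the summed tags of the Upstate-type antibody and lot 58206. The upper groups were set mainly by the Upstate-type antibody. In the groups from 2 to 3, 3 to 4, 4 to 6 and 6 to 10 times the median, its median window held 37, 67, 99 and 149 tags. Lot 58206 gave 25, 22, 23 and 29 there. Below 0.5 times the median of this pool, tags of lot 638466 were 1.22 times as many at *T* = 6d (interval 1.22 to 1.23), and between 1 and 1.5 times the median the ratio was 0.998. It was 0.871 between 1.5 and 2 times and 0.794 between 2 and 3 times. From there it changed little, to 0.771 between 3 and 4 times and 0.766 between 4 and 6 times. Between 6 and 10 times the median it was 0.686 (0.677 to 0.695). In the 102 windows at 10 or more times the median it was 0.749, a little higher than in the group before. The share of windows called lower nevertheless rose at each step from the lowest to the highest level, from 0.0257% to 48.0%. In the 102 highest windows the median went from 125.5 tags to 45, and 49 were lower and 0 higher. The background windows, between 0.5 and 1.5 times the median of the pool, had a ratio of 1.05. The tags of each library were counted against its total, so these ratios are relative to it.

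**Figure D1:**
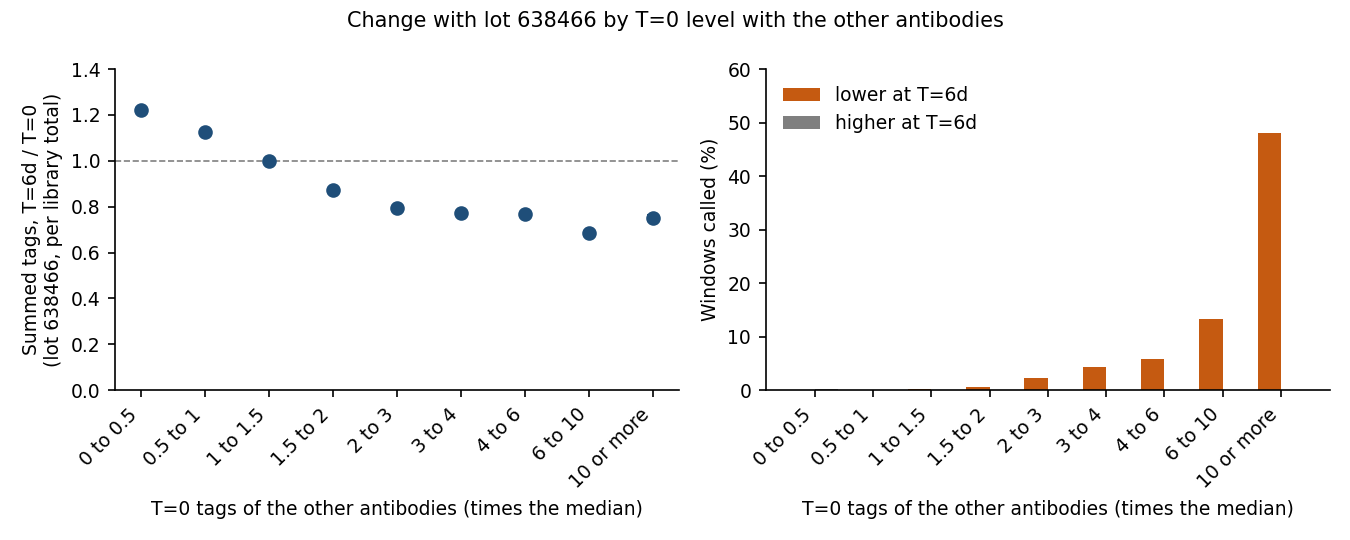
Windows of 5 kb grouped by the pooled *T* = 0 tags of the other antibodies, in multiples of their median (x axes). The left panel gives the ratio of summed lot 638466 tags at *T* = 6d to *T* = 0 with 95% counting intervals, which are smaller than the points, and the right panel the percent of windows called lower or higher. The ratio goes from 1.22 to 0.749, and windows called lower reach 48.0% in the group at 10 or more times the median.

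Reference windows that fell furthest with another antibody also fell furthest with this lot. They were divided by the ratio of *T* = 6d to *T* = 0 of the Upstate-type antibody, whose libraries share no tags with those of lot 638466. Where that ratio was below 0.25 (542 windows), lot 638466 gave 0.376 (interval 0.369 to 0.383) and its median went from 66.5 to 27 tags. Between 0.5 and 0.75 (513 windows) it gave 0.649 (0.637 to 0.662), and between 0.75 and 1 (527 windows) 0.823 (0.809 to 0.837). In the 40 windows where the Upstate-type antibody gave 1.5 or more, lot 638466 still gave 0.925 (0.884 to 0.969). The share called lower fell over these groups from 65.7% to 14.4%, 2.66% and 0%. Divided by lot 58206 instead, the ratio of lot 638466 was 0.337 (0.330 to 0.345) in the 394 windows where that lot gave less than 0.25, and 0.772 (0.758 to 0.785) in the 729 windows where it gave 1.5 or more. So reference windows that gained tags with lot 58206 held fewer tags at *T* = 6d with lot 638466. The windows of these groups also differed at *T* = 0, since those with the lowest ratios held the most tags of lot 638466.

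**Figure D2:**
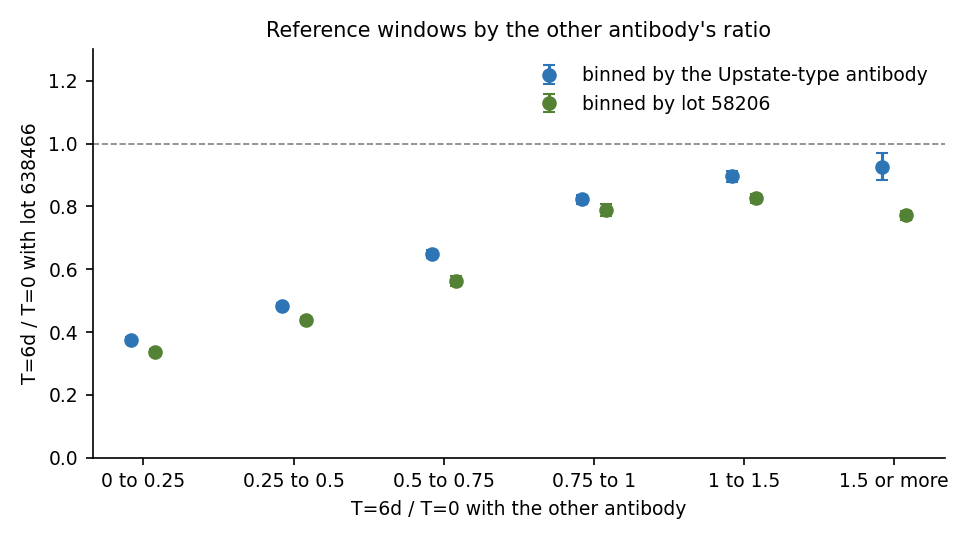
Reference windows grouped by the *T* = 6d to *T* = 0 ratio of another antibody (x axis) against the ratio of summed tags with lot 638466 in the same windows (y axis), with 95% counting intervals. All 12 groups lie below 1, from 0.337 to 0.925.

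The Upstate-type antibody has libraries in between, so the reference windows could be divided by the time point at which they were first called lower with it (unadjusted *P* below 0.01, over 1.5-fold). The 355 windows first lower at *T* = 2d had a ratio of 0.347 with lot 638466 at *T* = 6d (interval 0.339 to 0.355), and 278 of them (78.3%) were called lower. For the 518 windows first lower at *T* = 4d the ratio was 0.445 (0.437 to 0.453), with 54.4% lower. For the 230 windows first lower at *T* = 6d it was 0.601 (0.584 to 0.618), with 19.1% lower. Their median level at *T* = 0 with lot 638466 was 74, 63 and 48 tags in this order, so windows that fell earlier also had more tags to begin with, and both differences stand side by side.

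Windows lower with both other antibodies were then measured with lot 638466, over all levels. By the unadjusted rule, 3.17% of all tested windows were lower and 1.91% higher with the Upstate-type antibody, and 2.56% were lower and 1.89% higher with lot 58206. There were 4160 windows lower with both. In these, tags of lot 638466 decreased from 199645 to 99086, a ratio of 0.497 (interval 0.494 to 0.501), the median from 44 to 23 tags, and 94.8% of the windows had a ratio below 1. Of the 4153 that were tested 1087 were called lower (26.2%), and 0 higher. Among the 804 that were also reference windows, the ratio was 0.386 (0.380 to 0.392) and 530 (65.9%) were lower. In the 592 reference windows called with neither other antibody the ratio was 0.876 (0.863 to 0.889), the median went from 41 to 32 tags, and 12 (2.03%) were lower. The same windows gave 0.892 with the Upstate-type antibody and 1.20 with lot 58206.

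The fall was centred on the windows and flattened a peak. Within 2.5 kb of the centre of the 4160 windows, lot 638466 gave 9.82 tags per kb and window at *T* = 0 and 4.78 at *T* = 6d, a ratio of 0.487 (0.483 to 0.492). From 5 to 10 kb away the values were 6.33 and 4.76 (ratio 0.754), and from 15 to 25 kb away 5.73 and 4.94 (ratio 0.864, 0.860 to 0.867). At *T* = 0 the centre thus held 1 clear peak, while at *T* = 6d the tags in the centre lay slightly below those 15 to 25 kb away. The flanks were below 1 as well, which the background windows, at 1.05, were not.

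**Figure D3:**
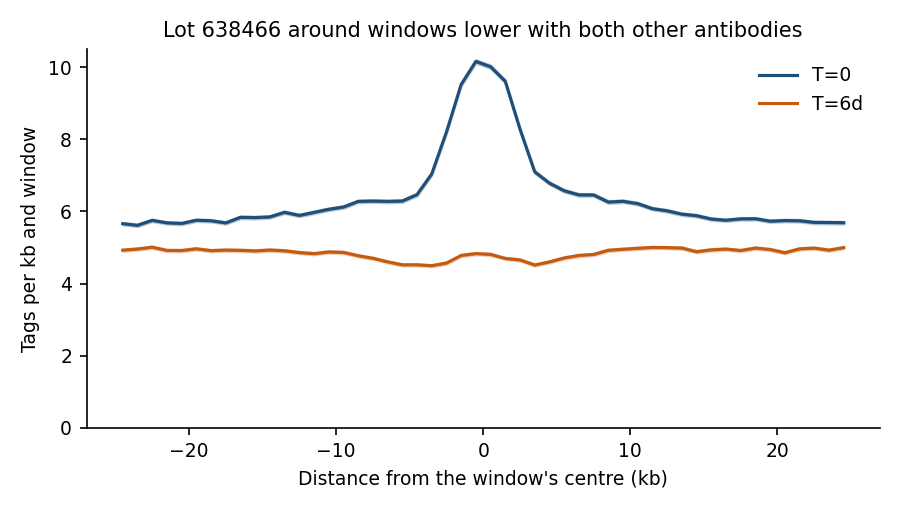
Tags of lot 638466 per kb and window (y axis) by distance from the centre of the 4160 windows lower with both other antibodies (x axis, kb). Lines are means over windows at *T* = 0 and *T* = 6d and the bands their counting error. The peak at *T* = 0, 10.2 tags per kb just left of the centre, is at 4.83 at *T* = 6d.

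Conversely, the 2175 windows lower with lot 638466 were measured with the other antibodies. Their median number of tags with this lot went from 57 to 19, values that chose them and are given as a description. With the Upstate-type antibody the median was 38 in untreated cells and 23, 11 and 9 at the successive later time points, and 1427 windows (65.6%) were lower at *T* = 6d by the unadjusted rule and 17 higher. With lot 58206 the median went from 37 to 15, and 1238 (56.9%) were lower and 50 higher. By the end of the 48 h treatment, at *T* = 2d, 511 were already lower with the Upstate-type antibody, and 1307 were by *T* = 4d, against 0.618% and 1.96% of all tested windows. The 1087 windows lower with lot 638466 and with both other antibodies were 50.0% of the first list and 26.1% of the second. The 1542 lower windows outside the reference windows had ratios of 0.442 with the Upstate-type antibody and 0.589 with lot 58206. Of these, 834 (54.1%) were lower and 17 higher with the Upstate-type antibody, and 684 (44.4%) were lower and 43 higher with lot 58206.

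The 361 higher windows held a median of 9 tags at *T* = 0 and 35 at *T* = 6d with lot 638466, values that chose them. With the Upstate-type antibody their median was 9 at *T* = 0 and 11 at *T* = 6d, and with lot 58206 it was 14 and 16, near the medians of 10 and 17 that all tested windows held at *T* = 0. Of these windows 7 (1.94%) were higher with the Upstate-type antibody and 10 (2.77%) with lot 58206, against 1.91% and 1.89% of all tested windows. Their summed tags had ratios above 1, at 1.31 (interval 1.25 to 1.37) with the Upstate-type antibody and 1.14 (1.10 to 1.19) with lot 58206. All tested windows between 0.5 and 1 times the median of the pool gave 1.27 and 1.16. In 355 of 358 regions the higher window stood alone.

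Joined where neighbouring, the lower windows made 1907 regions, of which 1706 were single windows, 201 held 2 or more and 10 held 4 or more, and they covered 10.875 Mb. The longest lay at chr10:82860001-82925000, 65 kb in which all 13 windows were reference windows. Its tags with lot 638466 went from 1129 to 281, a ratio of 0.249 (interval 0.218 to 0.284), and those with the Upstate-type antibody from 1222 at *T* = 0 to 912, 392 and 316 at the later time points. With lot 58206 they went from 1074 to 242. A region 10 kb before it on the same chromosome, chr10:82825001-82850000, went from 623 to 173 tags (ratio 0.278). The region at chr16:22380001-22415000 went from 900 to 234 (0.261), that at chr4:155525001-155565000 from 659 to 187 (0.284), and that at chr18:74515001-74540000 from 352 to 142 (0.404). All 5 were lower with both other antibodies as well, with the weakest fall for the region on chromosome 4 with the Upstate-type antibody, from 912 to 520 tags.

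The regions with the largest relative change were single windows with few tags at *T* = 6d. At chr13:66645001-66650000 lot 638466 gave 35 tags at *T* = 0 and 1 at *T* = 6d, a ratio of 0.0286 (interval 7.05e-04 to 0.170). The Upstate-type antibody gave 25, 10, 1 and 2 tags there over the time course, and lot 58206 gave 19 and 4. At chr12:18135001-18140000 the tags went from 33 to 2, at chr10:88110001-88115000 from 44 to 3, at chr3:27960001-27965000 from 30 to 2 and at chr7:4200001-4205000 from 54 to 4. The other 5 of the 10 largest falls went from between 31 and 52 tags to between 3 and 6, at chr1:5980001-5985000, chr16:94500001-94505000, chr8:63215001-63220000, chr8:66290001-66295000 and chr10:41495001-41500000. None of these 10 was a reference window. With the Upstate-type antibody tags were fewer at *T* = 6d than at *T* = 0 in all 10, and the weakest relative fall was from 45 to 10 at chr10:41495001-41500000. Lot 58206 also gave fewer tags in each, but by little in some, such as 20 against 17 at chr8:63215001-63220000.

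The 5 largest rises were windows with few tags of lot 638466 at *T* = 0, the values that chose them. At chr2:96485001-96490000 lot 638466 gave 4 tags at *T* = 0 and 29 at *T* = 6d, a ratio of 7.27 (interval 2.55 to 28.4), where the Upstate-type antibody gave 7 and 11 and lot 58206 gave 14 and 21. Tags went from 4 to 28 at chr1:114045001-114050000 and at chr4:78570001-78575000, from 4 to 27 at chr1:15330001-15335000, and from 6 to 38 at chr4:91815001-91820000. The Upstate-type antibody gave more tags at *T* = 6d in the windows on chromosome 2 and at chr4:78570001-78575000, 9 against 2, and fewer in the other 3, with 7 against 15, 6 against 10 and 7 against 8. Lot 58206 gave fewer at chr4:91815001-91820000, 11 against 13, and more in the other 4. The smallest Fisher's exact *P* among these was 0.0654, at chr4:78570001-78575000 with the Upstate-type antibody, and at such counts only a large change could have passed the test.

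The reference windows with the most tags did not move together. The highest, chr17:39980001-39985000, went from 2637 to 711 tags with lot 638466 (ratio 0.270, interval 0.248 to 0.294), while the Upstate-type antibody gave 865, 382, 80 and 130 tags over its time course and lot 58206 gave 2138 and 1183. The next, chr11:3090001-3095000, went from 1518 to 921 (0.608, 0.560 to 0.660). The other 3 lay close to it, at chr11:3060001-3065000, chr11:3040001-3045000 and chr11:3055001-3060000, and went from 927 to 1017, from 919 to 972 and from 905 to 1002 tags. Their ratios were 1.10, 1.06 and 1.11 and none was called (Fisher's exact test, adjusted *P* = 0.419, 0.712 and 0.365), and with the Upstate-type antibody they were 1.41, 1.13 and 1.28. These 4 windows of chromosome 11 lie in the first assembled megabase, from 3 to 4 Mb, which on mouse chromosomes borders the centromere.

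The first assembled megabase of all chromosomes held 101248 tags at *T* = 0 and 96461 at *T* = 6d, a ratio of 0.955 (interval 0.946 to 0.963). In its 62 reference windows the ratio was 0.937 (0.917 to 0.957) and 10 were lower (16.1%, exact interval 8.02 to 27.7%). In the 2291 reference windows elsewhere the ratio was 0.574 (0.569 to 0.579) and 623 were lower (27.2%, 25.4 to 29.1%). The summed ratios differ beyond counting error, while the intervals of the shares, which treat windows as independent, overlap. Without the 21 windows above 500 tags over both libraries, the ratio of the reference windows near the centromeres was 0.747 (0.709 to 0.788), and their median with all 62 went from 91 to 70.5 tags.

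At the loci that the study displays, read to the nearest kb, lot 638466 gave fewer tags at *T* = 6d at all 3 and not at the control region. The study names these 3 as examples of reduced H3K9me3, from the series that holds these libraries. The tests on them are therefore a description and not independent support. The *H19* region, at chr7:149764001-149770000, borders a gene for an imprinted long non-coding RNA. It held 113 tags at *T* = 0 (95% exact Poisson interval 93.1 to 136) and 43 at *T* = 6d (31.1 to 57.9), a ratio of 0.381 (0.262 to 0.546, Fisher's exact test, *P* = 1.93e-08). Most of the difference lay between 2 and 5 kb from its start, where successive kb held 23, 27 and 32 tags at *T* = 0 and 7, 8 and 5 at *T* = 6d. Outside this peak the tags per kb were between 9 and 11 at *T* = 0, and 7 or 8 at *T* = 6d. Its flanks of the same total length went from 46 to 35, within counting error (ratio 0.763, 0.477 to 1.21).

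The *Olfr901* region, at chr9:38216001-38236000, lies beside an odorant receptor gene. Its tags went from 146 (123 to 172) to 65 (50.2 to 82.8), a ratio of 0.446 (0.328 to 0.602, *P* = 2.49e-08, Fisher's exact test), and all 10 bins of 2 kb were lower. The highest bins, at either end of the region, held 24 and 25 tags at *T* = 0 and 11 each at *T* = 6d, and the bin from 2 to 4 kb held 10 and 0. The flanks, 10 kb on each side, held 79 and 82 tags in all (ratio 1.04, 0.754 to 1.44).

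The *Cdh3* region, at chr8:108962001-109031000, is named for the gene of P-cadherin, an adhesion molecule. Over 69 kb it held 491 tags at *T* = 0 (449 to 536) and 318 at *T* = 6d (284 to 355), a ratio of 0.649 (0.562 to 0.749, Fisher's exact test, *P* = 1.30e-09). Of its 23 bins of 3 kb, 16 were lower, 3 higher and 4 equal at 0 tags. The largest step was from 52 to 13 tags, in the bin from 60 to 63 kb. Here the flanks fell about as far as the region, from 710 to 471 (ratio 0.665, 0.590 to 0.748). The control region at chr4:3015001-3020000 held 91 and 100 tags (ratio 1.10, 0.821 to 1.48, *P* = 0.516, Fisher's exact test). Its highest kb held 53 tags in both libraries, and its flanks went from 56 to 42 (ratio 0.752, 0.491 to 1.14). This region lies in the first assembled megabase of its chromosome.

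**Figure D4:**
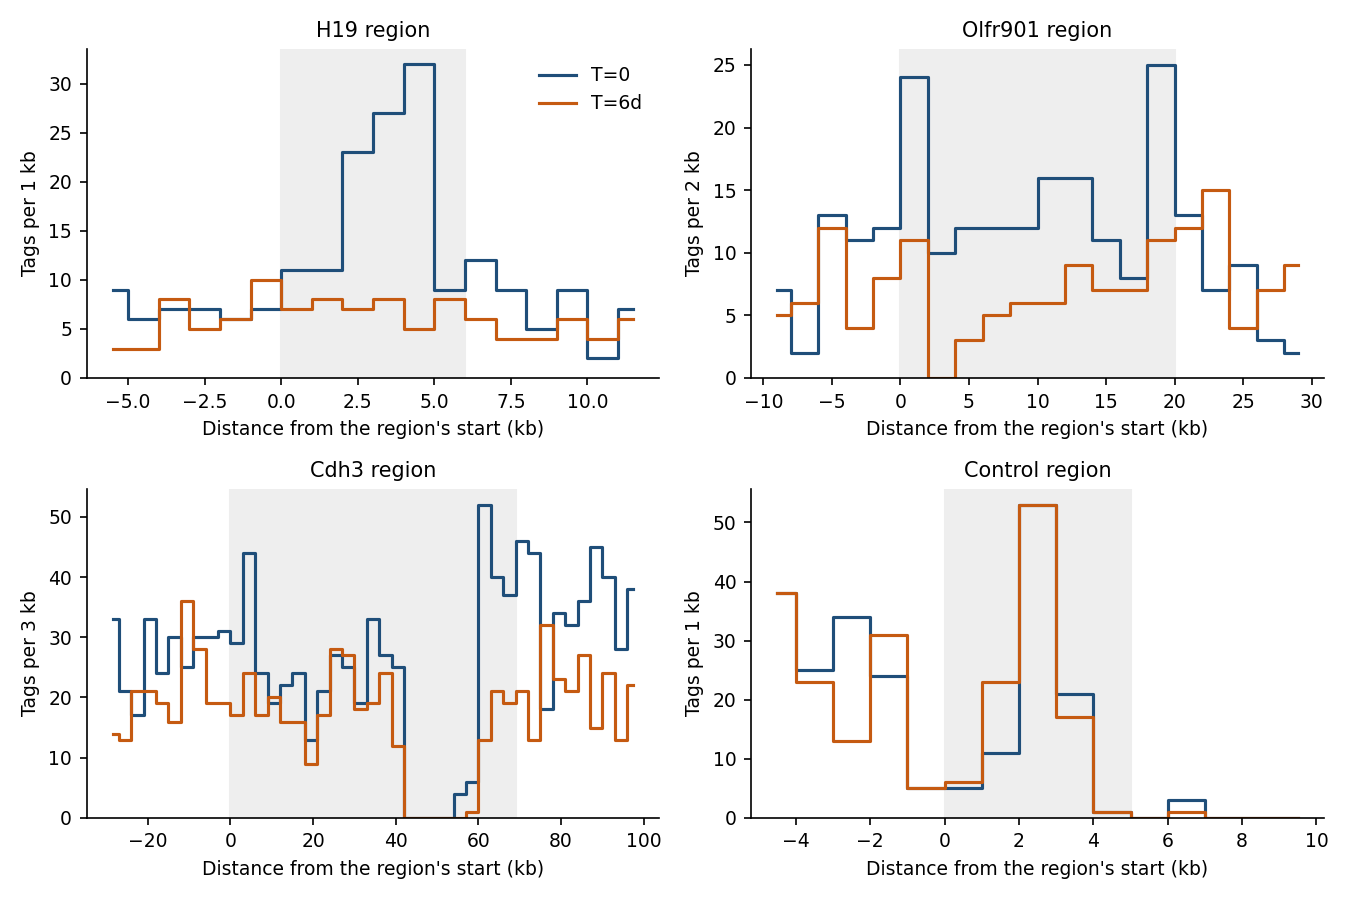
Tags of lot 638466 per bin (y axes, bins of 1, 2, 3 and 1 kb) by distance from the start of the *H19*, *Olfr901*, *Cdh3* and control regions (x axes, kb), at *T* = 0 and *T* = 6d. Grey marks the region. The peak of 32 tags in the *H19* region is at 5 at *T* = 6d, whereas the peak of 53 in the control region is the same in both libraries.

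Only uniquely mapped tags are in the files, so repeated sequence appears as gaps that hold no tag of any library. At 6241 gaps of 4 to 9 kb, the size of a full-length retrotransposon, lot 638466 gave 3.92 tags per kb in the first kb of the flanks at *T* = 0 and 3.33 at *T* = 6d, a ratio of 0.851 (0.840 to 0.862). The ratio was 0.936 from 1 to 2 kb, 1.02 from 2 to 5 kb and 1.08 from 20 to 50 kb, so that of these distances only those within 2 kb of the gaps gave a ratio below 1. At 16476 gaps of 1.5 to 4 kb the first kb gave 0.905 (0.895 to 0.914). The first kb beside the longer gaps gave 0.587 with the Upstate-type antibody and 0.756 with lot 58206, both further from 1 than with this lot. What the gaps contain was not tested. Of the windows called lower, 5.20% touched a flank of a longer gap, against 1.65% of all tested windows and 1.11% of the windows called higher.

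**Figure D5:**
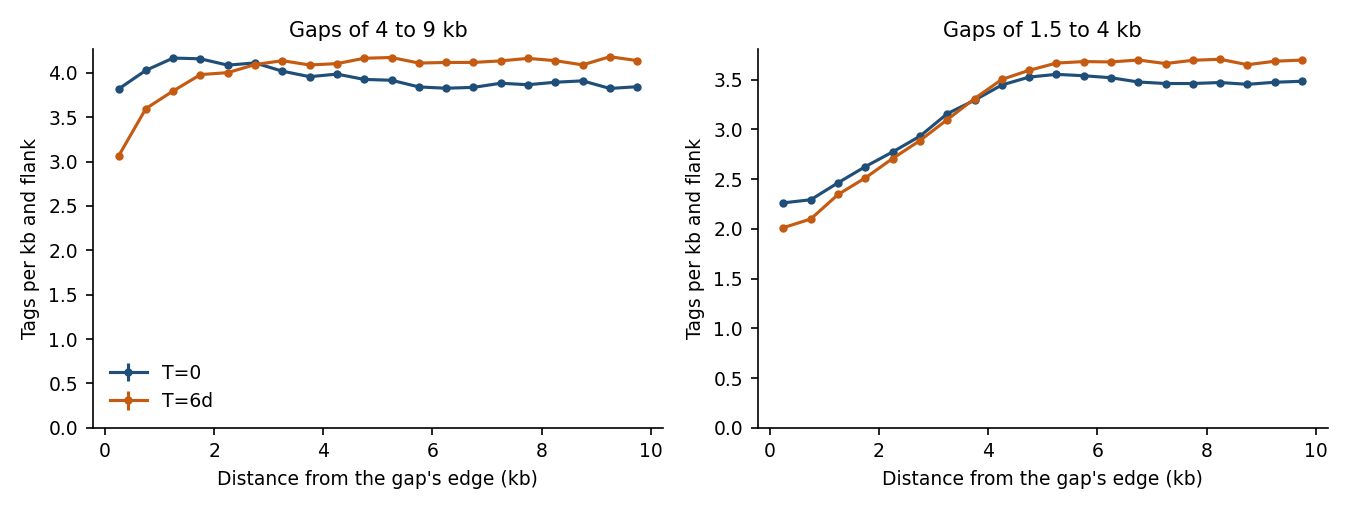
Tags of lot 638466 per kb and flank (y axes) by distance from the edge of gaps without tags (x axes, kb), for gaps of 4 to 9 kb (left) and 1.5 to 4 kb (right), with counting error. Next to the longer gaps, in the first point, the value is 3.82 at *T* = 0 and 3.06 at *T* = 6d, and beyond 5 kb the *T* = 6d library is the higher.

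Beside these changes, the libraries of this lot differed over whole chromosomes. The ratio of all tags per chromosome ran from 0.936 on chromosome 11 to 1.06 on chromosome 3, and across the 19 chromosomes it went with GC content (of GRCm38, another build) with Pearson's r = -0.929 and Spearman's rho = -0.904. With the Upstate-type antibody r was -0.341 and with lot 58206 it was 0.165. These points share their libraries and base composition and are a description. The ratio in the reference windows was below 1 on every one of the 19 chromosomes, from 0.475 on chromosome 10 to 0.810 on chromosome 11, and its r against GC was 0.463 (rho = 0.342). In the windows lower with both other antibodies it was between 0.423 and 0.545 on every chromosome, with r = -0.309 and rho = -0.175 against GC. The rate of windows called lower on a chromosome went with GC at r = 0.543 (rho = 0.456) and that of windows called higher at r = -0.365 (rho = -0.353). The part of base composition in the calls of single windows was not tested beyond these values.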

How the data were processed

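H3K9me3 ChIP-seq tags were taken from the BED files of 8 libraries, 1 for each antibody and time point, grouped by the labels. The deposited files hold the start and end of each tag (unit: other, mm9 positions). The authors mapped tags uniquely, brought the libraries of an antibody to 1 number of tags and extended tags to 300 bp, and no start occurs more than once in a library, which limits the highest counts. The aligner is not given in the sources used here.

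Tags were placed by their midpoint in 5-kb windows of chromosomes 1 to 19 in Python 3.11.15 (scipy 1.17.1, numpy 2.4.6, pandas 2.3.3; figures in matplotlib 3.10.9). Windows were compared as given in the text against all tags in windows. The test was first run on simulated tags with counting error only, a smaller spread than these libraries had. Intervals of ratios are exact conditional binomial intervals (95%). The regions named were the 10 largest falls and 5 largest rises with at least 30 tags (on log2 with 0.5 added), the 5 longest lower regions, the 5 reference windows with the most *T* = 0 tags, and the loci the study displays. The regions, lists and tests were chosen with earlier results of these data known. Alternatives were other window sizes, thresholds, scalings and choices of reference windows. The X and Y chromosomes were left out of the windows, input libraries were not analysed here, and 0 columns of other values were set aside.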

Additional observations from a re-analysis of the deposited data

Results flagged for a closer look

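Chromosome X, left out of the windows, held 278482 tags of lot 638466 at *T* = 0 and 303914 at *T* = 6d, a ratio of 1.09 (95% interval 1.09 to 1.10), while the ratio was 0.964 with the Upstate-type antibody and 0.984 with lot 58206. It was singled out because it lies outside the compared windows and the *T* = 6d value exceeds that of the untreated library.

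The lots of the Abcam antibody differed in the reference windows. The ratio of *T* = 6d to *T* = 0 was 0.617 with lot 638466 and 1.04 with lot 58206, so that the ratio with lot 638466 was 0.592 times that with lot 58206 (95% interval 0.586 to 0.598, counting error only). The *T* = 0 library of lot 58206 was used to choose these windows, and that of lot 638466 was not.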

How the results depend on the processing

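Of 86 values recomputed under alternatives, 20 moved. All 30 ratios kept their direction. Those of the loci kept their call, and every other interval still excluded 1. Of the counts and shares of windows, 36 stayed within 1.5 times and 12 did not, and all 8 shares of tags left the counting interval of the reported value. The windows called lower were 1141 with 2-kb windows, 3439 with 10-kb windows, 9466 with an unadjusted *P* below 0.01, and 3489 when scaled to background windows, which kept all 2175. The windows called higher were 52, 1282 and 7135 under the first 3 of these, and 262 of the 361 remained under background scaling. The share of reference windows called lower was 10.4% with 2-kb windows, 13.0% for windows at 2 times the median in each library, 5.72% for windows chosen on the pool of the other antibodies, and 73.9% for windows chosen on the *T* = 0 library of lot 638466 itself, where counting error alone favours a fall. With the unadjusted rule 2 reference windows were higher. The summed ratio in reference windows stayed between 0.548 and 0.788, and was 0.577 without the 30 windows above 500 tags, a choice made after seeing the data. The share of tags in windows at 3 times the median was 1.31% at *T* = 0 and 0.307% at *T* = 6d with 2-kb windows, and 0.413% and 0.213% with 10-kb windows. With a limit of 2 times it was 4.13% and 1.10%, and with 5 times 0.267% and 0.194%. Other window sizes and limits also change which windows are counted. Depth limits single windows, since a median window of 25 tags needs a large change to be called.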
